A study of Mus musculus with 6 samples.

Results

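The genes described here are 10 genes of the distal convoluted tubule that handle salt, magnesium and calcium, measured in the renal cortex of mice. They are Slc12a3, Wnk1, Wnk4, Stk39, Klhl3, Trpm6, Egf, Trpv5, Calb1 and Pvalb, and their probes were found by the gene name in the scanner file. These genes held 21 of the 56605 probes on the array, and all 10 were among the 18576 gene names that could be tested. The genes were chosen by name, with their log2 differences between the labelled groups on these same arrays in view. Those differences are therefore given as a description with no test.

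Gene expression was measured on one-colour Agilent arrays, 3 from each group of male mice. In the labels the mice are 16 weeks old and their genotype is db/m or db/db, and HQD is stated to have been given for 8 weeks. HQD is Huangqi decoction, a Chinese herbal formula given by mouth. db/db mice lack a working leptin receptor, so they become obese and diabetic, and db/m mice carry 1 normal copy of the gene and serve as the lean control. The study's methods and the deposited design text describe these groups in another way, as db/db mice with and without HQD. The groups are therefore called labelled db/m and labelled db/db, and whether they differ in genotype, in treatment or in both cannot be told apart. Neither the HQD dose behind these arrays nor any pooling of mice is given in the sources used here.

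The distal convoluted tubule is the short nephron segment after the thick ascending limb. Its cells take up sodium and chloride through the thiazide-sensitive cotransporter NCC, which a chain of WNK kinases and the kinase SPAK switches on by phosphorylation. The same segment sets the final loss of magnesium through the channel TRPM6, and its later portion takes up calcium through TRPV5. Array signal reports transcript abundance only, so phosphorylation and protein amount are not measured here. In whole cortex, fewer cells of a type and less RNA per cell cannot be told apart.

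The probes on which the results turn most are shown by the first 30 of their 60 bases, 5′ to 3′, as the scanner files give them, with no base marked. The Slc12a3 probe lies on mm9 at chr8:96875636-96875695, plus strand. For Wnk1, the brightest probe lies at chr6:119874366-119874425 and the next brightest spans chr6:119921070-119922819, both on the minus strand. For Calb1, the brighter of the tested probes lies at chr4:15835078-15835137 and the dimmer at chr4:15833582-15833641, both on the plus strand. They are shown because the Wnk1 pair gave unlike differences and the Calb1 pair gave the widest spread.
Slc12a3: gcaggctagcaccatcttccagtcggagca
Wnk1, brightest probe: ttcataccagcagtagagggagccaaatgc
Wnk1, next brightest probe: ttgaaggatgtatccgacaaaacaaagatg
Calb1, brighter probe: gaagtagcagttcctgatgaggaataaggg
Calb1, dimmer probe: ctcagtgaatgacttagaggtatgagcagt

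A level is the log2 signal of a probe minus the 75th percentile of its array, and a difference is the mean of labelled db/m minus the mean of labelled db/db, with its standard error (SE) from limma. The brightest tested probe stands for a gene, and levels of different probes are not set against each other. Between 51.6% and 59.0% of probes were well above background on an array, and no spot was saturated. One array stood apart from its group. The summed linear signal of 5 inner medulla genes was 73.9, 11.4 and 52.9 on labelled db/m 1, 2 and 3 and between 13.1 and 14.2 on the 3 labelled db/db arrays. This linear sum is weighted to its brightest gene, Akr1b3, and in it labelled db/m 2 was below every labelled db/db array. By gene this held for Akr1b3 and Slc5a3, whereas Slc14a2 and Fxyd3 were above every labelled db/db array and Aqp4 lay among them. The differences of the 10 genes and the medians of the lists of neighbouring cells are given below with and without labelled db/m 2. The arrays lay on 3 slides, of which only slide 1 held both groups, with labelled db/m 1 and labelled db/db 3.

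Slc12a3, which encodes NCC, had the widest difference between the groups among the 10 genes. Its level was 2.40, 2.67 and 2.16 on the labelled db/m arrays and 3.25, 3.42 and 3.29 on the labelled db/db arrays. Every labelled db/m array was below every labelled db/db array. The difference was -0.91 (SE 0.15), which is a 1.88-fold higher signal in labelled db/db. Of all 18576 genes, 62 (0.334%) had a difference further below 0.

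The 3 labelled db/db arrays lay close together for Slc12a3, within 0.16 on the log2 scale, whereas the labelled db/m arrays spread over 0.51. Labelled db/m 2, with its low summed inner medulla signal, differed from the mean of labelled db/db in Slc12a3 by -0.65. The mean of labelled db/m 1 and 3 differed by -1.04. On slide 1, the difference between the array of each group was -0.88. Over 19 other settings of the processing and of the arrays used, some of which cannot change it, the Slc12a3 difference ran from -1.09 to -0.78.

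Wnk1 encodes a chloride-sensing kinase that acts on SPAK, and the kidney also makes a short form without most of the kinase domain. The brightest Wnk1 probe had levels of 4.47, 4.75 and 4.37 on labelled db/m and 4.93, 5.11 and 4.87 on labelled db/db. The groups did not overlap, with labelled db/m lower, and the difference was -0.44 (SE 0.14). Labelled db/m 2 was the nearest of its group to labelled db/db, at -0.22 from the mean of labelled db/db, against -0.55 for labelled db/m 1 and 3 together.

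The other Wnk1 probes did not separate the groups. The next brightest probe, 48.4 kb upstream of the brightest, had levels of 1.91, 2.18 and 1.80 on labelled db/m and between 1.96 and 2.08 on labelled db/db, and labelled db/m 2 was its highest array. Its difference was -0.05 (SE 0.13). A pair of dimmer probes between them, the nearer of which lay 13.3 kb upstream, had differences of -0.03 (SE 0.16) and -0.23 (SE 0.20), with overlapping groups. One more Wnk1 probe, 38.0 kb upstream, was too dim to be tested. With the mean of all tested Wnk1 probes in place of the brightest, the Wnk1 difference was -0.19.

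Wnk4 encodes another WNK kinase of the distal convoluted tubule that acts on SPAK. Its level was 3.20, 2.72 and 2.85 on labelled db/m and 3.09, 2.95 and 2.79 on labelled db/db. The groups overlapped over nearly their whole range, and the difference was -0.02 (SE 0.16). The other Wnk4 probe gave -0.05 (SE 0.17). On slide 1 alone, the Wnk4 difference was 0.41. It was 0.08 without labelled db/m 2 and -0.16 without labelled db/m 1.

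Stk39 encodes SPAK, the kinase that phosphorylates NCC, and was the only one of the 10 genes with a higher mean in labelled db/m. Its level was 3.40, 2.42 and 3.09 on labelled db/m and 2.76, 2.50 and 2.80 on labelled db/db. Labelled db/m 2 was the lowest of all 6 arrays and the other labelled db/m arrays were the 2 highest, so the groups overlapped. The difference was 0.28 (SE 0.25). It was 0.56 without labelled db/m 2 and 0.07 without labelled db/m 1. The other Stk39 probe showed the same order of groups, with 0.36 (SE 0.24).

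Klhl3 encodes the adaptor that brings WNK kinases to the CUL3 ubiquitin ligase for degradation. Its signal was dim, and was well above background on 2 labelled db/m arrays and 3 labelled db/db arrays. Its level was -3.86, -3.20 and -4.20 on labelled db/m and -3.39, -3.66 and -3.55 on labelled db/db. Labelled db/m 2 was the highest of all 6 arrays and the other labelled db/m arrays were the lowest. The difference was -0.22 (SE 0.25). It was -0.50 without labelled db/m 2 and 0.002 without labelled db/m 3.

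**Figure D1:**
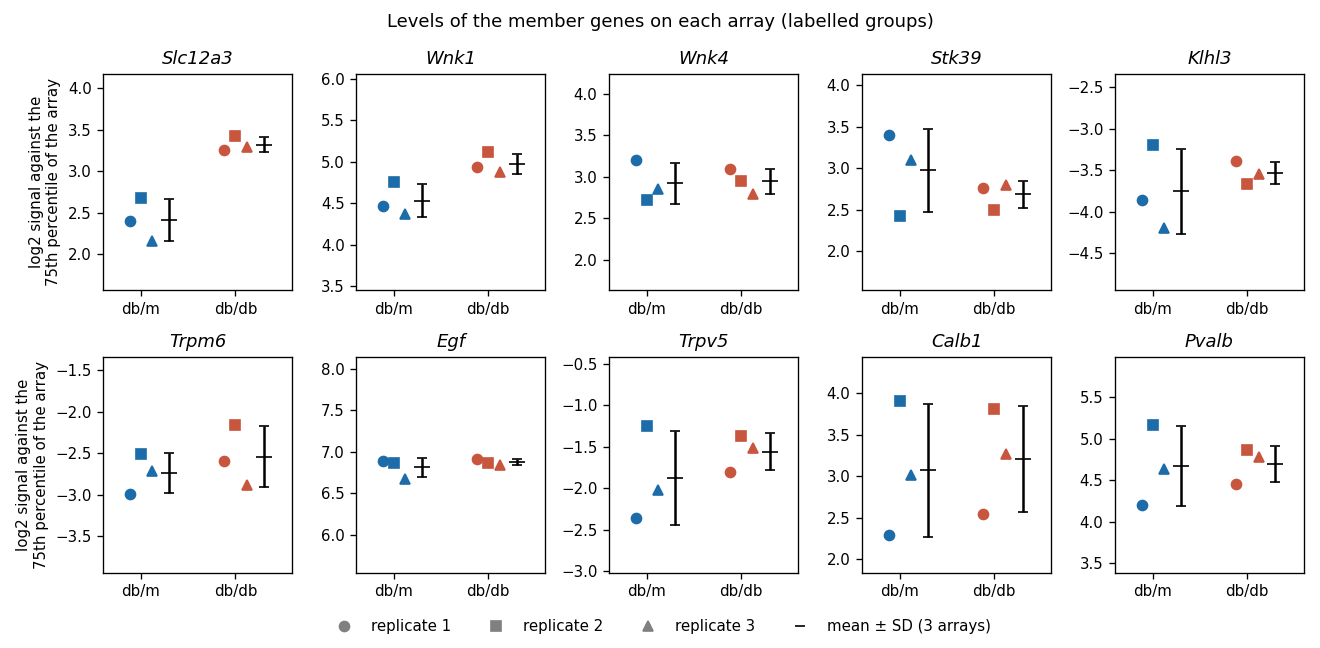
Levels of the 10 genes on each array, as log2 signal against the 75th percentile of the array (vertical axes of equal span, centred on each gene), for the brightest tested probe. Symbols are replicates 1, 2 and 3 of each labelled group and the bars are the mean ± SD of 3 arrays; only Slc12a3 and Wnk1 show no overlap between the groups.

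The plot of levels by array sets the 10 genes side by side. The labelled groups are apart in Slc12a3 and Wnk1 and overlap in the other 8 genes. The spread within labelled db/m is wider than within labelled db/db in all but Trpm6, where labelled db/db spans 0.73 and labelled db/m 0.48.

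Of the magnesium genes, Trpm6 encodes the apical channel through which the segment takes up magnesium. Its level was -2.99, -2.50 and -2.71 on labelled db/m and -2.59, -2.15 and -2.88 on labelled db/db. The lowest array was a labelled db/m and the highest a labelled db/db array, with overlap between. The difference was -0.19 (SE 0.22). It was -0.31 without labelled db/m 2 and 0.004 without labelled db/db 2. The other Trpm6 probe was too dim to be tested.

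Egf encodes the membrane-bound precursor of epidermal growth factor, which is made in the thick ascending limb and distal convoluted tubule and raises TRPM6 activity once released. Its brightest probe was the steadiest of the 10, at 6.89, 6.87 and 6.68 on labelled db/m and 6.91, 6.86 and 6.85 on labelled db/db. All 6 arrays lay within 0.24 on the log2 scale, a 1.18-fold span. The difference was -0.06 (SE 0.11), and its sign turned under quantile normalization, where it was 0.13. Without labelled db/m 2 the Egf difference was -0.09, and without labelled db/m 3 it was 0.006. Both dimmer Egf probes had a higher mean in labelled db/m, with differences of 0.17 (SE 0.26) and 0.12 (SE 0.18).

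Trpv5 encodes the apical channel for calcium entry. Its level was -2.36, -1.25 and -2.02 on labelled db/m and -1.81, -1.36 and -1.51 on labelled db/db. The labelled db/m arrays held both the highest and the lowest value, so the groups overlapped. The difference was -0.31 (SE 0.29). It was -0.63 without labelled db/m 2 and -0.07 without labelled db/m 1.

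Calb1 encodes calbindin, which carries calcium through the cell from the apical to the basolateral side. The brighter tested probe had levels of 2.30, 3.90 and 3.01 on labelled db/m and 2.54, 3.81 and 3.26 on labelled db/db. Within each group the arrays ran from low to high in replicates 1, 3 and 2, and the span over 6 arrays was 3.04-fold, the widest of the 10 genes. The difference was -0.14 (SE 0.47), well inside that spread. It was -0.55 without labelled db/m 2 and 0.25 without labelled db/m 1.

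The second tested Calb1 probe had levels of -0.40, 1.33 and 0.23 on labelled db/m and -0.50, 0.98 and 0.58 on labelled db/db, with a difference of 0.03 (SE 0.53). It placed the arrays of each group in the same order as the brighter probe. One more Calb1 probe was left out of the fit because of an outlier flag on labelled db/db 2. On the other arrays its level was 5.21, 6.50 and 5.72 on labelled db/m and 5.56 and 6.12 on labelled db/db 1 and 3, again highest on labelled db/m 2 and lowest on labelled db/m 1.

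Pvalb encodes parvalbumin, a calcium-binding protein of the early distal convoluted tubule. Its level was 4.20, 5.17 and 4.64 on labelled db/m and 4.45, 4.86 and 4.78 on labelled db/db. The highest and the lowest array were both labelled db/m, and the difference was -0.03 (SE 0.25). Without labelled db/m 2 it was -0.28, and without labelled db/m 1 it was 0.20.

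Trpv5, Calb1 and Pvalb were each highest on labelled db/m 2 and lowest on labelled db/m 1. Signal of other cortical cells differed between the same arrays. The summed signal of 5 podocyte genes was 12.4, 30.6 and 19.3 on labelled db/m and 17.2, 26.5 and 21.4 on labelled db/db. The summed signal of 7 thick ascending limb genes was 541, 301 and 381 on labelled db/m and 401, 354 and 379 on labelled db/db. Within each group, the podocyte sum was thus lowest and the thick limb sum highest on replicate 1, and the part of these cells in the calcium genes was not tested. On slide 1, which holds labelled db/m 1, the differences of Calb1, Trpv5 and Pvalb were -0.97, -0.85 and -0.58.

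**Figure D2:**
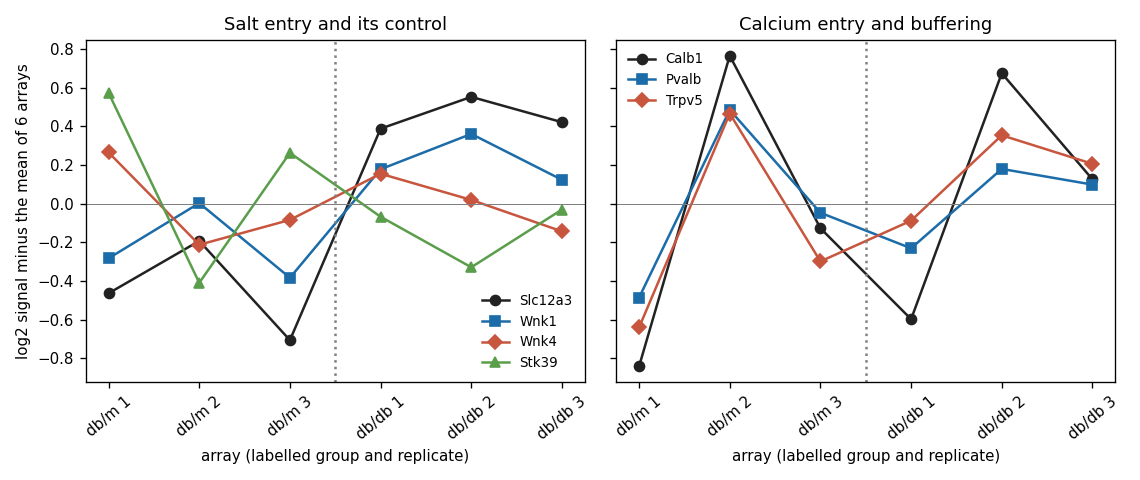
Log2 signal of 7 of the genes on each array minus the mean of the 6 arrays for that gene, with labelled db/m left and labelled db/db right of the dotted line; lines join the points of a gene and stand for no order of the arrays. Slc12a3 and Wnk1 are higher on all 3 labelled db/db arrays, whereas Calb1, Pvalb and Trpv5 peak on labelled db/m 2 and are lowest on labelled db/m 1.

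In the plot of centred levels, Slc12a3 and Wnk1 share the order of their arrays within labelled db/m and their highest array, labelled db/db 2. Stk39 is highest on labelled db/m 1 and lowest on labelled db/m 2. The calcium genes differ as much within labelled db/m as between any pair of arrays.

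Taking the 10 genes as a list, 9 had a lower and 1 a higher mean in labelled db/m, with a median difference of -0.16. Over all 18576 genes the median was -0.03 and 54.6% were lower in labelled db/m. The share depended on brightness: among the brightest 4644 genes, 79.2% were lower with a median of -0.15, and among the dimmest 4644 genes 30.8% were lower with a median of 0.19. Slc12a3, Wnk1, Wnk4, Stk39, Egf, Calb1 and Pvalb were among these brightest genes, and Klhl3, Trpm6 and Trpv5 among the dimmest. The groups did not overlap in 2 of the 10 genes, both lower in labelled db/m, against 23.0% of all genes in either direction, 15.8% lower and 7.15% higher in labelled db/m. Since the choice of genes used this contrast, nothing is read from these counts. Without labelled db/m 2 the median of the 10 genes was -0.40, beside -0.05 for all genes, and 5 of the 10 did not overlap, beside 46.5% of all genes.

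**Figure D3:**
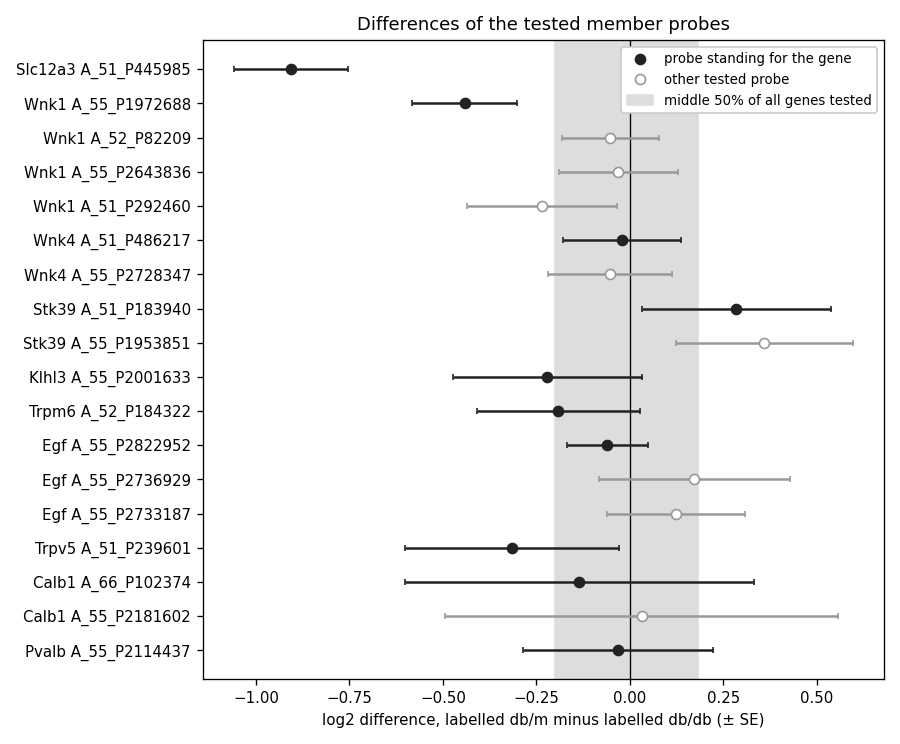
Log2 differences (labelled db/m minus labelled db/db) of the 18 tested probes of the 10 genes, with bars of ± 1 SE; filled points stand for the gene, open points are its other probes, and the grey band holds the middle 50% of all genes tested. The Slc12a3 probe at -0.91 lies furthest from the band, and only the brightest of the Wnk1 probes has its whole bar outside it.

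The plot of differences by probe shows that the bars of most probes reach into the grey band. The 2 probes whose whole bar lies below the band are those of Slc12a3 and the brightest of Wnk1.

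The other genes of the same pathways had not been used to choose the 10 genes, and they were read from the limma test over all genes. Their list was also drawn up with earlier results of these data known, so their p-values are not free of that choice. Of 44 such genes, 41 were tested, and Wnk3, Atp2b4 and Kcna1 were too dim. After Benjamini-Hochberg adjustment none of the 41 passed, and none of the 29890 tested probes passed, the lowest adjusted p by limma being 0.0579. Of those probes, 5282 (17.7%) passed the unadjusted limma threshold and 4617 that of a plain equal-variance test, which also gave 0 adjusted. At an unadjusted limma p under 0.05, 7 of the 41 (17.1%) passed, 1 higher and 6 lower in labelled db/m, beside 16.0% of all genes, of which 6.30% were higher and 9.65% lower. By the equal-variance test 5 of the 41 passed unadjusted and 0 adjusted. The groups did not overlap in 11 of the 41 (26.8%), beside 23.0% of all genes. In all, 31 of the 41 (75.6%) had a lower mean in labelled db/m, with a median difference of -0.09. Over all genes 54.6% were lower, with a median of -0.03. Among the brightest 4644 genes 79.2% were lower, with a median of -0.15. These shares also stand beside the counts of lower means by role below. Without labelled db/m 3 the 7 genes past the unadjusted threshold became 1, beside 6.54% of all genes. Without labelled db/db 1 or labelled db/db 2 they became 2, beside 8.98% and 7.45% of all genes, and without labelled db/m 2 they became 14, beside 23.3%. With slide as a fixed block 4 passed, of which Cab39l was the only one among the 7.

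Among 9 tested genes of WNK and SPAK signalling, 1 was higher and 2 were lower in labelled db/m at the unadjusted threshold. Cab39l, a scaffold that activates SPAK-type kinases, had levels of 2.97, 2.60 and 2.90 on labelled db/m and 2.29, 2.35 and 2.27 on labelled db/db. All labelled db/m arrays were higher, with a difference of 0.52 (SE 0.13, limma adjusted p = 0.240). Of the settings tried, Cab39l missed the unadjusted threshold only when arrays were centred on their median.

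Cab39l and the genes given as lower here and in the next paragraphs all missed the adjusted threshold. Cul3, the ubiquitin ligase scaffold that works with KLHL3, had levels of 1.01, 1.15 and 0.78 on labelled db/m and 1.32, 1.42 and 1.37 on labelled db/db. All labelled db/m arrays were lower, with a difference of -0.39 (SE 0.13, limma adjusted p = 0.244), and the unadjusted threshold was missed in 3 of 19 other settings. Sgk1, an aldosterone-induced kinase that restrains the ubiquitin ligase NEDD4L, had a difference of -0.48 (SE 0.19, limma adjusted p = 0.271), and missed the unadjusted threshold in 10 of 19 other settings. The highest labelled db/m array of Sgk1, at 4.82, was just under the lowest labelled db/db array, at 4.83. Nedd4l itself had a difference of -0.06 (SE 0.12) and Oxsr1, the kinase closest to SPAK, -0.03 (SE 0.10), with overlapping groups in both.

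The 7 genes for ion exit at the basolateral side had a median difference of -0.06, with 5 lower and 2 higher means in labelled db/m. Kcnj10, the potassium channel of the basolateral membrane, had a difference of -0.20 (SE 0.11, limma adjusted p = 0.364).

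Of 9 tested genes of magnesium transport, 8 had a lower mean in labelled db/m, and 1 of them passed the unadjusted threshold. Slc41a1, a magnesium transporter, had levels of -0.89, -0.67 and -0.86 on labelled db/m and -0.33, -0.26 and -0.60 on labelled db/db. All labelled db/m arrays were lower, with a difference of -0.41 (SE 0.13, limma adjusted p = 0.242), and it missed the unadjusted threshold in 5 of 19 other settings. Trpm7, the channel that pairs with TRPM6, had a difference of -0.03 (SE 0.13) and Cnnm2, a basolateral protein needed for magnesium uptake, 0.12 (SE 0.19). Egfr, the receptor for EGF, had a difference of -0.31 (SE 0.14, limma adjusted p = 0.308) with no overlap between the groups.

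Of 9 tested genes of calcium transport, 7 had a lower and 2 a higher mean in labelled db/m, with a median difference of -0.06. None passed the unadjusted limma threshold. The lowest difference was that of Pth1r, at -0.41 (SE 0.21), and the 2 higher means were those of Slc8a1 and Trpv6. S100g, which encodes the smaller calbindin, had a difference of -0.26 (SE 0.27), Slc8a1, the sodium-calcium exchanger, 0.12 (SE 0.28), and Trpv6, the channel closest to TRPV5, 0.15 (SE 0.13). Their groups overlapped. S100g was also lowest on labelled db/m 1, at 6.83, and highest on labelled db/m 2, at 7.87.

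Of 7 genes of distal tubule identity and steroid response, 5 had a lower mean in labelled db/m, and 2 of them passed the unadjusted threshold. Tmem52b had levels of 0.07, 0.31 and -0.28 on labelled db/m and 0.70, 0.46 and 0.50 on labelled db/db, with a difference of -0.52 (SE 0.17, limma adjusted p = 0.245), and it missed the unadjusted threshold in 4 of 19 other settings. Hsd11b2, the enzyme that keeps glucocorticoids off the mineralocorticoid receptor, had a difference of -0.41 (SE 0.17, limma adjusted p = 0.279), with overlapping groups. It missed the unadjusted threshold in 7 of 19 other settings, among them the equal-variance test. With slide as a fixed block the Hsd11b2 difference was 0.05. Nr3c2, the mineralocorticoid receptor, had a difference of -0.09 (SE 0.13).

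**Figure D4:**
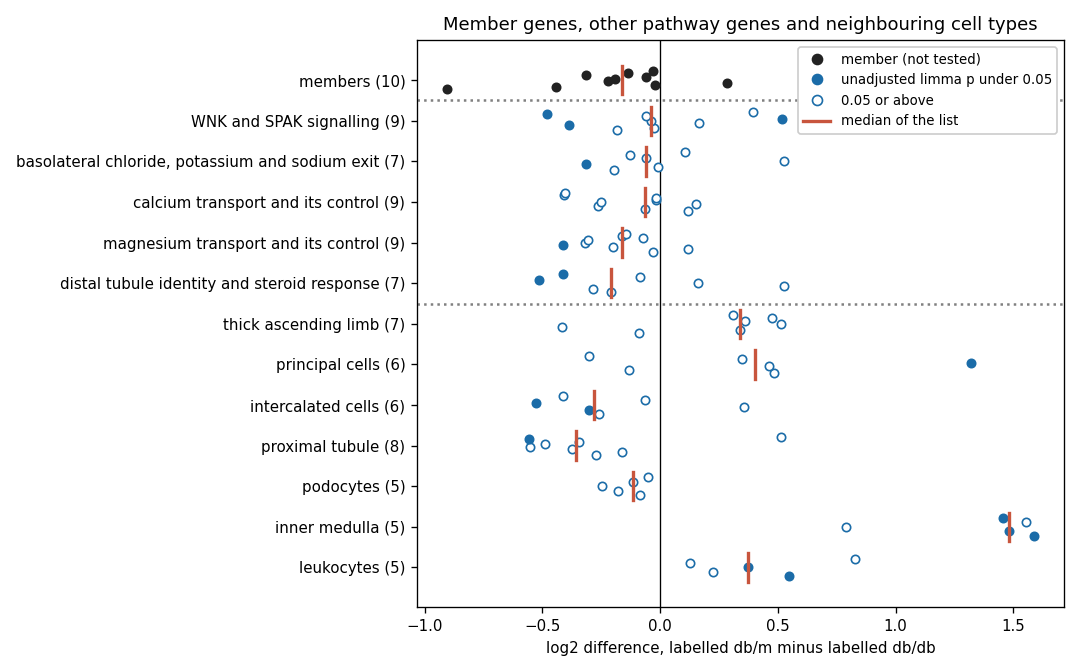
Log2 differences (labelled db/m minus labelled db/db) of each tested gene of the 10 genes, of the other pathway genes by role and of neighbouring cell types, with the number of genes in brackets and a bar at the median of each list; filled blue points have an unadjusted limma p under 0.05. The pathway lists have medians between -0.21 and -0.04, and the inner medulla genes lie furthest to the right with a median of 1.48.

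Genes of neighbouring cells differed in unlike directions in the plot of lists. The 5 inner medulla genes had a median difference of 1.48, all with a higher mean in labelled db/m. Of these, Slc14a2, Aqp4 and Fxyd3 passed the unadjusted threshold, beside 6.30% of all genes in that direction. Fxyd3 was well above background on 3 labelled db/m but 2 labelled db/db arrays. It thus entered the test only through the group where it was higher, and nothing is read from its pass. The differences of the list ran from Slc5a3, a myo-inositol carrier, at 0.79 to Slc14a2, a urea transporter, at 1.59. Of 6 principal cell genes the median was 0.40, from Scnn1g at -0.30 to Fxyd4 at 1.32. Of 7 thick ascending limb genes the median was 0.34, from Cldn16 at -0.42 to Cldn19 at 0.51.

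The proximal tubule, intercalated cell and podocyte lists had medians below 0, and the leukocyte list a median above 0. Of 8 proximal tubule genes the median was -0.36, from Slc22a8 at -0.56 to Slc7a13 at 0.51, and their summed signal was 552 to 934 on labelled db/m and 846 to 996 on labelled db/db. Of 6 intercalated cell genes the median was -0.28, from Slc26a4, the chloride-bicarbonate exchanger pendrin, at -0.53 to Slc4a1 at 0.35. The intercalated sum was 31.3 to 33.1 on labelled db/m and 37.0 to 40.3 on labelled db/db, with no overlap. This linear sum is weighted to its brightest gene, Slc26a4. By gene, Slc26a4, Atp6v0d2 and Atp6v1g3 did not overlap and Slc4a1, Foxi1 and Atp6v1b1 did, beside 23.0% of all genes without overlap. Of 5 podocyte genes the median was -0.12, from Podxl at -0.25 to Synpo at -0.05, and of 5 leukocyte genes it was 0.37, with Cd3e lowest at 0.13. The part of any of these cell types in the difference of Slc12a3 was not tested. Without labelled db/m 2 the medians were 2.06 for inner medulla, 0.67 for the thick ascending limb, 0.47 for principal cells, 0.45 for leukocytes, -0.26 for intercalated cells, -0.37 for podocytes and -0.56 for the proximal tubule.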

How the data were processed

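Renal cortex RNA was labelled with Cy3 and measured on 6 one-colour arrays, 3 per labelled group. The authors deposited scanner files with the intensity of each spot, background-subtracted and detrended by Agilent Feature Extraction 10.7.1.1 and not normalized between arrays. A deposited table of log2 values from the authors has a median of 6.11 and nearly the same distribution in each column. It is used only as an alternative, and its method of scaling is not given in the sources used here. Probe coordinates are those of the mm9 array design.

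Values were processed in R (4.3.3) and limma (3.58.1). Control spots and probes flagged as outliers were removed, repeat spots were averaged, and the 75th percentile was subtracted from the log2 intensity of each array. Testing took in each probe called well above background on every array of 1 group or both, with lmFit, eBayes and Benjamini-Hochberg adjustment over 29890 probes. The share of genes past a threshold is over 18576 genes by their brightest tested probe. An exact two-sided permutation test of 3 against 3 cannot give a p below 0.1, so none was run. Scripts were tested on simulated data. The number of arrays limits the precision. Each array is a separate sample in the labels, and p-values set a difference against the spread between these samples. Since only slide 1 held both groups, a difference fitted without the slide block can hold a part from the slides.

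The genes and lists were chosen with earlier results of these data known. Named were all 10 genes, the pathway genes with an unadjusted p under 0.05 and the channels and transporters of each role, and the highest and lowest gene of each neighbouring cell list. Some genes that this rule covers are not reported here by name, and they stay in the counts and medians. Slide, normalization, background correction, filters, the replicate number and each array were varied. No per-sample column lacked a sample.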

Additional observations from a re-analysis of the deposited data

How the results depend on the processing

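The Slc12a3 difference stayed negative and moved by less than the spread between replicates in all 19 alternatives. Not all of these could move it. The filters on dim probes, the replicate block, the floor for dim signal and the mean of probes leave its only probe as it was. Slide as a fixed block and slide 1 alone give the same value, -0.88. Wnk1 stayed negative, with -0.63 under median centring and -0.19 for the mean of its probes, and Trpv5 also stayed negative, and Stk39 stayed positive. Wnk4, Egf, Klhl3, Trpm6, Calb1 and Pvalb took both signs. The median difference over all probes was -0.21 under median centring and -0.03 with the 75th percentile. The median of the 10 genes (-0.16) was -0.35 under median centring, -0.36 with slide as a fixed block and within slide 1, and -0.49 without labelled db/m 2 and labelled db/db 3 together, a setting chosen after seeing the data. Leaving out 1 array gave -0.40 (without labelled db/m 2) to -0.042 (without labelled db/db 2). The number of the 10 genes without overlap (2) was 1 for the mean of all probes, 6 without those 2 arrays together, where 65.6% of all genes did not overlap, and 2 to 5 when 1 array was left out, where 25.6% to 46.5% of all genes did not.

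The 7 pathway genes became 12 under median centring, 4 without a filter on dim probes and 4 with slide as a fixed block. In the same settings the 5282 probes past the unadjusted threshold became 6677, 4936 and 2902. Without labelled db/m 2 and labelled db/db 3 together, 15 pathway genes passed, beside 31.2% of all genes, and 9311 probes. Leaving out 1 array gave 1 (without labelled db/m 3, beside 6.54% of all genes) to 14 (without labelled db/m 2, beside 23.3%). Without labelled db/db 1 or 2 it gave 2, beside 8.98% and 7.45%. The probes past the threshold were then 2301 (without labelled db/m 3) to 7249 (without labelled db/db 3). Hsd11b2 turned from -0.41 to 0.045 with the slide block. The cause of these shifts was not tested.

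Arrays of the same replicate number deviated together with r of 0.35, 0.15 and 0.05, and between unlike numbers r ran from -0.34 to 0.15. Not every array correlated best with its own number. These values cannot tell whether the numbers pair the arrays. A replicate block gave 6559 probes and 7 pathway genes past the unadjusted threshold and left the differences of the 10 genes as they were. Klhl3 could not be tested under the filter on all 6 arrays. Depth in the sense of read counts does not apply, and dim signal limits Klhl3 most.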
